A study of Mus musculus with 18 samples.

Results

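Atf3 is 1 gene of the 20207 listed for each of 18 mRNA-seq samples of mouse NIH3T3 fibroblasts, and its row was followed through all of them. It was chosen by its read counts and RPKM values, which were high after both heat and tunicamycin against the reference, so these contrasts are given as a description, without a test. The cells stably expressed DD-GFP, a destabilizing domain (the L106P mutant of FKBP) fused to superfolder GFP. By the study's methods, stable cells were sorted for bright fluorescence, and are therefore a sorted population of 1 cell line. The ligand S1, which keeps the domain folded, stayed in the medium of all 18 cultures. The reference was 3 cultures at 37°C without stress (0 min). For heat stress (HS), 3 cultures each were collected after 45 and 135 min at 42°C. For tunicamycin (Tu, 5 µM), which blocks N-linked glycosylation and so causes misfolding in the endoplasmic reticulum (ER), 3 cultures each were collected after 45, 135 and 405 min. Both stresses served as controls beside the study's work on unfolded DD, samples of which are not analysed here.

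Atf3 encodes a transcription factor of the ATF/CREB family with a basic leucine zipper (bZIP), the domain through which such factors pair and bind DNA. As a homodimer it is known mainly as a repressor, and with other bZIP proteins it can activate. It belongs to the genes that respond early to many stresses: in the integrated stress response, kinases such as PERK phosphorylate eIF2alpha, translation of ATF4 rises and ATF4 activates Atf3, Ddit3, Trib3 and Chac1. Mitogen-activated protein kinases and p53 are other known inputs, and the heat shock response runs through another factor, HSF1.

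The files placed Atf3 on the minus strand of chromosome 1 of mm9, from 192994176 to 193007212, and no other listed gene overlapped it. GENCODE on this build gives 2 transcripts there, of which the coding one has 4 exons. The 250 bases before the start are shown because they hold the elements through which ATF4 and its partners are described to act, and because the genes most like Atf3 are compared with it below. They are from RefSeq (GRCm38.p6, chr1:191183334-191183583, minus strand) and matched mm9 exactly once, at chr1:193007213-193007462, directly before the listed gene. Capitals mark a C/EBP-ATF element, TGATGCAA read on the other strand, whose first base is 110 bases before the start, and a CRE-like site, TTACGTCA, whose first base is 10 bases before it.
Atf3 promoter: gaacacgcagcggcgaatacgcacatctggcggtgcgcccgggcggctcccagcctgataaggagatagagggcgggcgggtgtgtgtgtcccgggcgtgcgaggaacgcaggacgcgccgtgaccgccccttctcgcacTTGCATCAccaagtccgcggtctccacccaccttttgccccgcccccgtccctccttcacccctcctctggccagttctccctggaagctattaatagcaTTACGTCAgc
The element TGATGCAA, searched on both strands, was in 0.895% of 32851 RefSeq promoter windows of 300 bases. TTACGTCA, which was picked after this window had been seen, was in 0.499% of them. The CRE palindrome TGACGTCA (1.79% of windows), the heat shock element core GAANNTTC (7.86%), the AP-1 site TGANTCA (7.81%), the E-box CACGTG (7.15%) and TATAAA (13.6%) had no match in the Atf3 window. These are matches of letters, not measured binding.

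Of the 10 genes whose levels ran most like those of Atf3 across the 18 samples, 8 had a promoter window, and TGATGCAA was in 2 of these, Fgf21 and Chac1. Of 16 genes of the integrated stress response, 15 had one, and it was in 3, Chac1, Nupr1 and Vldlr. A gene counted if any of its windows held the element, whereas the share of 0.895% is over windows. Each match is shown on its gene's strand with 10 bases on either side. The element is in capitals, to let the flanks be compared with those in Atf3.
Fgf21, chr7:45615612-45615639, minus strand: gacccccccaTTGCATCAtccgtccagg
Chac1, chr2:119351039-119351066, plus strand: ttccctgccgTTGCATCActcctgccag
Nupr1, chr7:126625563-126625590, minus strand: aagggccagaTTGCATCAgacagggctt
Vldlr, chr19:27216810-27216837, plus strand: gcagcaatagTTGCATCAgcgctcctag
In these 4 genes, as in Atf3, the element reads TTGCATCA on the strand of the gene, between 110 and 200 bases before the start. The shared element was not tested for a part in any change.

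The depth on genes was 33415592 to 66478268 reads in a sample. The 7 fibroblast markers summed to 3842 to 11986 RPKM (reads per kilobase of gene, scaled to library size) in a sample, whereas 7 epithelial, leukocyte, macrophage and endothelial markers summed to 3.79 to 7.81, nearly all of it Cd68, and Epcam was at 0 in 5 of the 6 groups. Hspa1b, the inducible HSP70, was at 5.47 to 6.30 CPM (reads scaled to library size alone) in the reference and at 46.0 to 1210 CPM after HS. Hspa5, the ER chaperone BiP, was at 656 to 735 CPM in the reference, 923 to 955 at 45 min of Tu, 333 to 491 at 135 min and 8800 to 9290 at 405 min. In this gene the cultures labelled 135 min of Tu thus lay below the reference, and those labelled 45 min above it. The time labels were used as given. Whether these 2 sets of cultures carry the right times was not tested. The direction of every result that sets them against each other rests on the labels. Results that set HS against Tu at equal times, or over these times, rest on the labels in size as well as direction. Within a group, log2 CPM of replicates correlated with r from 0.935 to 0.996, lowest in the 2 HS groups. HS replicate 3 at 45 min (46.0 CPM of Hspa1b, against 280 and 223) and HS replicate 1 at 135 min (263 against 1140 and 1210) had far less of this gene than their groups. Over all genes, HS 45 min replicate 3 was again the one apart (r = 0.954 and 0.937 with the others, which had 0.988 with each other). At HS 135 min, however, the lowest r was that of replicates 1 and 2 (0.935), and replicate 3 had 0.987 with replicate 1 and 0.968 with replicate 2. Hsph1, another heat shock chaperone, was lowest at HS 135 min in replicate 2 (1240 CPM, against 2720 in replicate 1 and 2120 in replicate 3).

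In the unstressed reference, Atf3 was a weakly expressed gene, with 49, 56 and 38 reads in the 3 cultures. This is 1.23, 1.0 and 0.869 CPM, scaled by TMM across the 18 samples, or 0.510, 0.438 and 0.386 RPKM. Between 51.6% and 53.2% of the listed genes had a higher RPKM, so that Atf3 lay near the middle of all genes. The lowest count, 38 reads, has an exact 95% Poisson interval of 26.9 to 52.2, which covers counting error only.

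After 45 min of HS, Atf3 had 530, 288 and 273 reads, or 10.1, 6.27 and 3.97 CPM. All 3 cultures lay above the reference, and replicate 3, the culture with little Hspa1b, was the lowest. After 135 min of HS it had 1733, 2883 and 3497 reads, or 27.4, 63.9 and 61.5 CPM. Again all 3 lay above the earlier time, and replicate 1, with the least Hspa1b at 135 min, was the lowest.

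After 45 min of Tu, Atf3 had 1791, 2187 and 1565 reads, or 26.6, 29.0 and 33.1 CPM. After 135 min it had 228, 204 and 172 reads, or 5.52, 3.82 and 4.71 CPM. After 405 min it had 5952, 5389 and 5023 reads, or 93.9, 95 and 90.4 CPM. The 3 Tu groups did not overlap with each other or with the reference, and the middle time was the lowest of the 3. At 405 min only 8.67% to 9.56% of listed genes had a higher RPKM than Atf3.

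**Figure D1:**
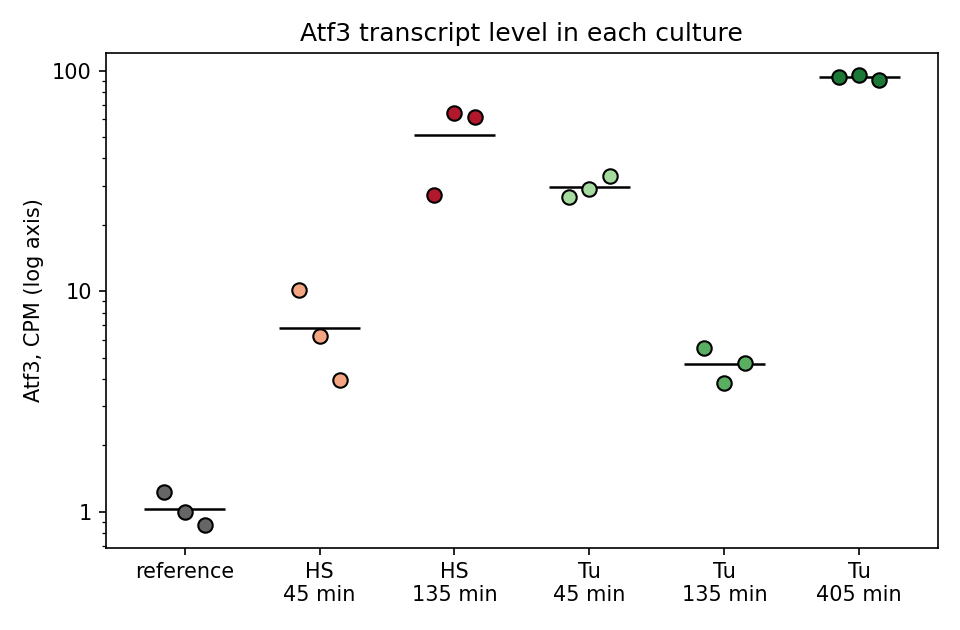
Atf3 level in CPM (log axis) in each of the 18 cultures, by group. Points are cultures and lines are group means of 3. The reference lies at 0.869 to 1.23 CPM, Tu 405 min at 90.4 to 95, and Tu 135 min, at 3.82 to 5.52, lies below Tu 45 min.

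Ordered by mean level, the 6 groups fell into 4 steps. The reference was at 1.03 ± 0.183 CPM (SD, n = 3, as for the means that follow). Tu 135 min (4.68 ± 0.846 CPM) and HS 45 min (6.79 ± 3.11 CPM) came next and overlapped, with 4.53 and 6.57 times the reference mean. Tu 45 min (29.6 ± 3.31 CPM) and HS 135 min (50.9 ± 20.4 CPM) also overlapped, at 28.6 and 49.3 times the reference mean. Tu 405 min was at 93.1 ± 2.42 CPM, 90.1 times the reference, and overlapped with no other group. On the per-length scale the order was the same, from 0.445 ± 0.0622 RPKM in the reference to 38.4 ± 1.63 RPKM at Tu 405 min, with the same overlaps. In these bulk samples, fewer cells of a kind and less RNA per cell cannot be told apart.

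Set against the reference in the fit of all genes, Atf3 had a log2 difference of 2.71 (standard error 0.42) at HS 45 min and 5.62 (0.42) at HS 135 min. For Tu it was 4.85 (0.20) at 45 min, 2.19 (0.27) at 135 min and 6.52 (0.18) at 405 min. Among the 12731 genes tested, this was the largest positive difference at Tu 45 min and at Tu 405 min. It ranked 9 at HS 45 min, 7 at HS 135 min and 15 at Tu 135 min. These are the contrasts for which the gene was chosen, and they share the same 3 reference cultures.

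The comparisons between stressed groups leave the reference out, although they use cultures through which the gene was chosen. During HS, Atf3 was 7.26 times as high at 135 as at 45 min, a log2 difference of 2.86 (95% interval 1.70 to 4.02). The groups did not overlap, yet the adjusted p was 0.157 by edgeR's quasi-likelihood test over all genes, so the difference did not pass the threshold of 0.05. By that test 0 of 12731 genes passed in this comparison (0.0%), although 658 were higher and 823 lower at an unadjusted p under 0.05, and Atf3 had the 12th largest positive difference. DESeq2, which passed 194 higher and 209 lower genes, gave Atf3 an adjusted p of 2.09e-06. The test over all 18 samples gave 0.000234. An exact permutation test of 3 against 3 cultures cannot go below p = 0.10.

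During Tu, Atf3 fell and then rose by the labelled times. From 45 to 135 min it fell by 2.66 on the log2 scale (95% interval -3.09 to -2.22), the third largest fall of all genes, with an adjusted p of 0.0062 by edgeR's test, which 0.291% of genes passed in either direction. From 135 to 405 min it rose 19.6-fold, or by 4.29 (3.88 to 4.71), with an adjusted p of 2.61e-05 by edgeR, in a comparison in which 43.7% of genes passed. From 45 to 405 min it rose 3.06-fold, or by 1.61 (1.38 to 1.85), with an adjusted p of 1.07e-05 by edgeR, where 52.5% of genes passed. The 2 rises kept their call without any 1 of the cultures. The fall kept it only without Tu 135 min replicate 1 (adjusted p = 0.00183 by edgeR). It was lost without Tu 45 min replicate 1, 2 or 3 (0.0599, 0.114 and 0.0643 by edgeR) and without Tu 135 min replicate 2 or 3 (0.0655 and 0.0668 by edgeR), while its size stayed at -2.77 to -2.53.

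At equal labelled times the mean levels of Atf3 in the 2 stresses stood in opposite order. This order rests on the labels of the Tu cultures: the HS 45 min mean (6.79 CPM) was above that of the cultures labelled Tu 135 min (4.68), and the HS 135 min mean (50.9) above that of the cultures labelled Tu 45 min (29.6), with overlap in both pairs. At 45 min, Atf3 was lower after HS than after Tu, by 2.13 on the log2 scale (-2.97 to -1.28), and the groups did not overlap. This missed the threshold (adjusted p = 0.0774 by edgeR, which 0.204% of genes passed), but passed without HS 45 min replicate 3, where the difference was -1.85 and the adjusted p 0.00126 by edgeR. At 135 min, Atf3 was higher after HS than after Tu, 10.7-fold or by 3.42 (2.53 to 4.31), with an adjusted p of 0.0182 by edgeR, which 2.12% of genes passed. That call was lost without HS 135 min replicate 3 (adjusted p = 0.14 by edgeR) and without Tu 135 min replicate 1, 2 or 3 (0.0688, 0.163 and 0.135 by edgeR).

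By the labelled times, the change from 45 to 135 min itself differed between the stresses. It was higher in HS than in Tu by 5.53 on the log2 scale (standard error 0.54, 95% interval 4.32 to 6.73), with an adjusted p of 0.00108 by edgeR. This test passed 1.74% of genes in this direction and 1.41% in the other. Leaving out any 1 of the 12 cultures kept the call, with values of 5.26 to 5.92 and adjusted p from 0.000692 to 0.00831 by edgeR. Both its size and its direction take the 2 Tu times as labelled. From 45 to 135 min Atf3 changed by 2.86 in HS and by -2.66 in Tu. With the 2 Tu labels exchanged, both would be rises of similar size.

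**Figure D2:**
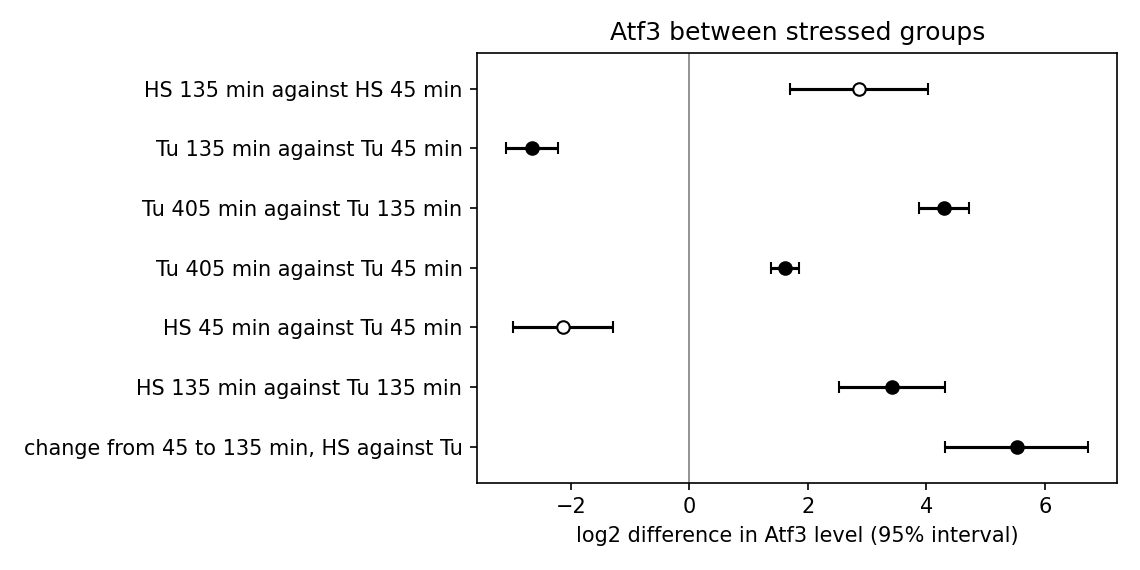
Log2 differences in Atf3 level between stressed groups, with 95% intervals from edgeR, 3 cultures per group. Filled points passed an adjusted p of 0.05 and open points did not. No interval includes 0. By the labelled times, the change from 45 to 135 min differs between HS and Tu by 5.53.

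The relatives and partners of Atf3 were compared with the reference, as were 5 lists of genes from its known pathways. All 7 lists hold 82 genes, of which 74 were tested. Against the same 3 reference cultures, 23 of these passed at HS 135 min, 22 at Tu 45 min, 7 at Tu 135 min and 55 at Tu 405 min. Over all genes, 4.75% passed upward and 2.64% downward at HS 135 min, and 4.01% and 2.17% at Tu 45 min. The shares were 0.126% and 0.00785% at Tu 135 min, and 23.3% and 23.5% at Tu 405 min. At HS 45 min 0 listed genes passed by edgeR and 17 by DESeq2. Over all genes that comparison had 0 calls by edgeR (0.0%), with 1568 higher and 912 lower at an unadjusted p under 0.05, and 386 higher and 65 lower by DESeq2. Beyond the 4 genes with the largest differences in each list, genes named below were chosen after their values were seen, to account for small counts. Single cultures moved the counts of listed genes. Without HS 45 min replicate 3, 53 listed genes passed at HS 45 min. At HS 135 min the count was 38 without HS 135 min replicate 1, 15, 4 and 3 without reference replicate 1, 2 and 3, and 3 without HS 135 min replicate 3. At Tu 45 min it was 34, 9 and 9 without reference replicate 1, 2 and 3, and 14 and 8 without Tu 45 min replicate 1 and 2. At Tu 135 min it was 3 without reference replicate 1 and 0 without reference replicate 2 or 3 or Tu 135 min replicate 2 or 3. In that comparison, deviations from group means correlated between cultures of the same replicate number (0.207 to 0.295), although no label gives a pairing. The counts above are from fits without a block. With the number as a block the count at Tu 135 min was 0 of 74.

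In the ATF/CREB family, Jdp2 and Atf4 were the members that rose against the reference in both stresses, at HS 135, Tu 45 and Tu 405 min. Of 13 relatives 10 were tested, and Batf, Batf2 and Batf3 had too few reads. Jdp2, the closest relative of Atf3 and a repressor at the same DNA sites, was at 62.0, 64.4 and 67.6 CPM in the reference. It was at 152, 307 and 216 CPM after 135 min of HS, above all reference cultures. It rose by 1.80 (standard error 0.28) on the log2 scale, with an adjusted p of 0.0185 by edgeR. At Tu 45 min it rose by 1.25 (0.14) and at Tu 405 min by 1.87 (0.13). At Tu 135 min it was at 64.8 to 113 CPM, overlapping with the reference.

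Atf4, the activator translated when eIF2alpha is phosphorylated, was at 473 to 490 CPM in the reference. It rose by 1.57 at HS 135 min, 0.76 at Tu 45 min and 1.61 at Tu 405 min, over a smaller range than Atf3. At Tu 45 min it was at 761 to 849 CPM and at Tu 135 min at 689 to 1120 CPM, and the groups overlapped. The log2 difference between these times was 0.16 for Atf4 (adjusted p = 0.725 by edgeR) and -2.66 for Atf3. The ER-tethered factors Atf6 and Atf6b passed at Tu 405 min, higher by 1.12 and 0.48. In the family 2 of 10 passed upward at HS 135 min, where 4.75% of all genes did and 2.64% passed downward. The counts were 2 of 10 at Tu 45 min (4.01% of all genes upward and 2.17% downward), 0 at Tu 135 min (0.126% and 0.00785%) and 4 at Tu 405 min (23.3% and 23.5%), and none fell. Median differences were -0.12, 0.04, 0.20 and 0.38, beside medians of all genes of -0.02, 0.00, 0.00 and -0.01. Atf1, Atf2, Atf5, Atf7, Creb1 and Crem passed in none of these comparisons.

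Among 15 tested bZIP proteins that can pair with Atf3 or its relatives, different members were high at different times. Ddit3 (CHOP), the C/EBP-like factor, rose by 2.32 at HS 135 min, 2.92 at Tu 45 min and 5.22 at Tu 405 min. Fos and Fosb, subunits of AP-1, rose at Tu 135 min by 2.14 and 2.74 (adjusted p = 0.0457 for either by edgeR), the time at which Atf3 was lowest under Tu. Neither call was kept with the replicate number as a block. At Tu 405 min 7 rose (among them Ddit3, Cebpb by 1.48 and Mafk by 1.44) and 3 fell (Jun by 1.84, Fos by 1.18 and Maff by 0.63), where 23.3% of all genes passed upward and 23.5% downward. Counts upward were 2 at each of HS 135, Tu 45 and Tu 135 min, beside 4.75%, 4.01% and 0.126% of all genes. Medians were 0.78, 0.46 and 0.56 in these comparisons, and -0.08 at Tu 405 min.

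Part of the genes of the integrated stress response rose against the reference in both stresses. Of 16 tested, 8 rose and 1 fell at HS 135 min, 9 rose at Tu 45 min, 1 rose at Tu 135 min, and 11 rose and 3 fell at Tu 405 min, with medians of 0.90, 0.86, 0.78 and 1.34. Beside these counts, 4.75% of all genes passed upward and 2.64% downward at HS 135 min. The shares were 4.01% and 2.17% at Tu 45 min, 0.126% and 0.00785% at Tu 135 min, and 23.3% and 23.5% at Tu 405 min. The call at Tu 135 min, that of Myd116, was lost when replicates were blocked by number. The median of the 16 hardly differed between Tu 45 and 135 min (0.86 and 0.78), but single members went both ways. Mean levels of Ddit3, Myd116, Trib3 and Chac1, among others, were lower at Tu 135 than at Tu 45 min, as was that of Atf3. Those of Atf4, Atf5, Ppp1r15b, Eif2ak2 and Eif2ak4 were higher. The genes called lower against the reference, Eif2ak2 at HS 135 min and Eif2ak1, Eif2ak2 and Eif2ak4 at Tu 405 min, encode kinases of eIF2alpha and not targets of ATF4.

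Ddit3 was at 69.4 to 74.0 CPM in the reference, 257, 513 and 309 CPM at HS 135 min, and 416, 520 and 689 CPM at Tu 45 min. At Tu 135 min it was at 287, 175 and 161 CPM, below every Tu 45 min culture, and at Tu 405 min at 2160, 2860 and 2860 CPM. Like Atf3, it had its lowest Tu level at 135 min. Myd116, the files' name for Ppp1r15a (GADD34), an inducible subunit of the phosphatase of eIF2alpha, went the same way, at 206 to 256, 81.2 to 115 and 732 to 837 CPM. It fell by 1.25 from Tu 45 to 135 min (adjusted p = 0.047 by edgeR). Chac1, which degrades glutathione, and Trib3, a pseudokinase that restrains ATF4, were lower at Tu 135 min by 0.94 and 1.47, but did not pass (adjusted p = 0.125 and 0.0545 by edgeR). In the test of the time course, 5 of the 16 moved up in HS relative to Tu, as Atf3 did, and none moved down, beside 1.74% and 1.41% of all genes. Trib3 differed by 3.15, Chac1 by 2.46, Myd116 by 2.32, Ddit3 by 2.27 and Sesn2 by 1.46.

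Several of the immediate-early genes, which growth factor and kinase signals switch on within minutes, were high where Atf3 was low under Tu. Of 12 tested, 3 rose at Tu 135 min (Egr1, Egr2 and Nr4a1), where 0.126% of all genes passed upward. None of these 3 calls was kept with the replicate number as a block. At Tu 405 min 7 fell (23.5% of all genes) and 3 rose (Ier2, Ier3 and Myc, beside 23.3% of all genes). Egr1, a zinc finger factor, was at 136, 103 and 106 CPM at Tu 45 min, 689, 694 and 639 CPM at Tu 135 min, and 62.4, 74.8 and 61.1 CPM at Tu 405 min. Within the Tu series it was thus highest where Atf3 was lowest and lowest where Atf3 was highest. It rose by 2.55 (standard error 0.16) from Tu 45 to 135 min, with an adjusted p of 0.0062 by edgeR, while Atf3 fell by 2.66. Egr2 rose by 2.12 in the same comparison and the nuclear receptor Nr4a1 by 1.34. In the test of the time course 7 of the 12 moved down in HS relative to Tu and none up, beside 1.41% and 1.74% of all genes. The largest differences were those of Egr1 (-3.86), Egr2 (-3.23), Dusp1 (-2.67) and Dusp5 (-2.50), the last 2 being phosphatases of MAP kinases. The median of the 12 was -1.53, beside 0.00 for all genes. At HS 135 min Myc rose and Egr1 fell, beside 4.75% of all genes upward and 2.64% downward. At Tu 45 min Nr4a1 and Myc rose and Dusp1 and Dusp6 fell, beside 4.01% upward and 2.17% downward. Myc, a growth-promoting transcription factor, did not go the way of Egr1: it rose by 1.44 at HS 135 min, 1.85 at Tu 45 min and 2.26 at Tu 405 min, and from Tu 45 to 135 min its log2 difference was -0.51 (adjusted p = 0.236 by edgeR).

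**Figure D3:**
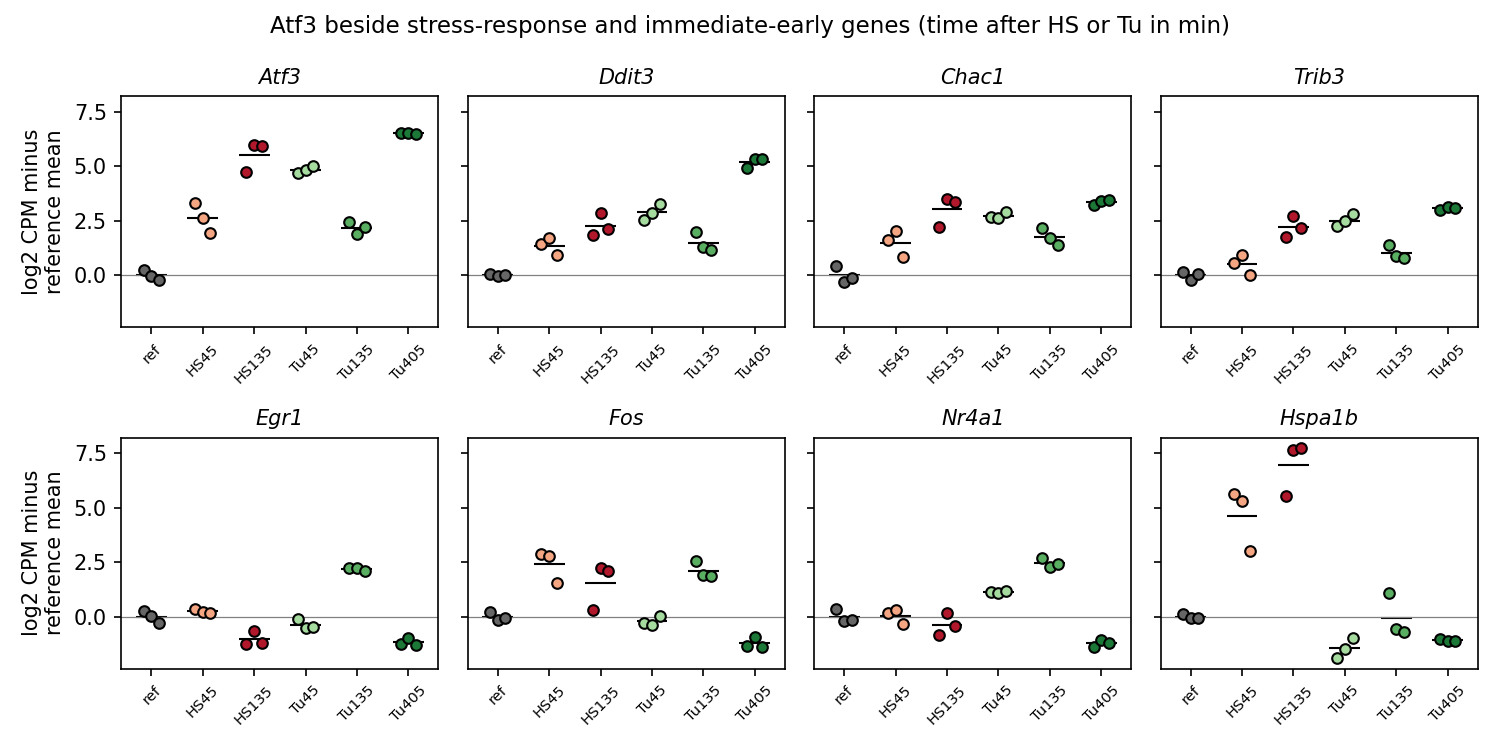
Log2 CPM minus the reference mean for Atf3 and 7 other genes in each culture (points) with group means (lines); numbers on the x axis are min of HS or Tu. Ddit3, Chac1 and Trib3 share the low Tu 135 min level of Atf3, Egr1, Fos and Nr4a1 are high there, and Hspa1b is high in HS only.

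Genes of the HSF1 arm, most of them chaperones, rose mainly in HS, whereas Atf3 was high in both stresses. At HS 135 min 7 of 10 rose, with a median of 2.84, where 4.75% of all genes passed upward. At Tu 45 min none rose and 4 fell, beside 4.01% and 2.17% of all genes. At Tu 405 min 2 rose (Hsf1 and Bag3) and 6 fell, beside 23.3% and 23.5% of all genes. Hspa1b rose by 7.24 at HS 135 min and fell by 1.40 at Tu 45 min, where Atf3 had the largest positive difference of all genes. Across the 18 samples its correlation with Atf3 was 0.122, and that of Hsph1 0.103. Within the HS groups, the culture with the least Hspa1b also had the least Atf3, at 45 and at 135 min. With Hsph1 this was not so: at HS 45 min it was lowest in replicate 2 (292 CPM, against 504 and 499), and at HS 135 min it was lowest in replicate 2, the culture with the most Atf3, and highest in replicate 1, the culture with the least.

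Of 8 genes of the p53 network tested, 3 rose at HS 135 min, 3 at Tu 45 min, 1 at Tu 135 min and 4 at Tu 405 min, where 2 fell. The call at Tu 135 min was lost with the replicate number as a block. Over all genes, 4.75%, 4.01% and 0.126% passed upward at HS 135, Tu 45 and Tu 135 min. At Tu 405 min 23.3% of all genes passed upward and 23.5% downward, so the number that fell was near the share of all genes. Gadd45a, a growth arrest gene also known as a target of ATF4, was the one that rose in each of these, by 1.99, 3.71, 1.71 and 4.84. It fell by 2.0 from Tu 45 to 135 min (adjusted p = 0.00995 by edgeR), beside the fall of 2.66 in Atf3. Cdkn1a (p21) rose by 0.80 at HS 135 min and Bbc3 (PUMA) by 1.97 at HS 135 min and 1.28 at Tu 45 min.

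Of 12 genes described as targets of the ATF3 protein, 8 could be tested. The inflammatory genes Il6, Il12b, Tnf and Ccl4 had too few reads in these fibroblasts. At Tu 405 min, when Atf3 was highest, 5 were lower (Ccnd1 by 1.45, Egr1 by 1.16, Id1 by 1.02, Mmp2 by 0.97 and Snai1 by 0.77) and 2 were higher (Ddit3 by 5.22 and Slc7a11 by 0.88). The median was -0.87, in a comparison in which 23.5% of all genes passed downward and 23.3% upward. At HS 135 min Ddit3 was higher and Egr1 lower, beside 4.75% of all genes upward and 2.64% downward. At Tu 45 min Ddit3 was higher, beside 4.01% upward and 2.17% downward. At Tu 135 min Egr1 was higher, beside 0.126% upward, a call lost with the replicate number as a block. At HS 45 min 0 of the 8 passed by edgeR, where 0.0% of all genes passed.

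The 10 genes with the highest Pearson correlation with Atf3 were found among 10856 genes with a mean of at least 1 CPM. They were Fgf21 (r = 0.974), 1700020L24Rik (0.968), Akap8l (0.965), Chac1 (0.962), Mmp28 (0.952), Pawr (0.949), Gata3 (0.948), Ndrg1 (0.947), Trib3 (0.945) and Gdf15 (0.941), over log2 CPM in 18 samples. The points share libraries, depth and scaling, and samples of a group are close to each other, so no p is given. Fgf21, a secreted metabolic hormone, was at 0.446 to 0.709 CPM in the reference, 2.32 to 4.12 at HS 45 min and 8.22 to 19.1 at HS 135 min. For Tu it was at 6.38 to 7.22, 0.985 to 1.62 and 22.2 to 36.9 CPM at 45, 135 and 405 min. A low level at Tu 135 min and a higher one at HS 135 than at HS 45 min were part of the likeness by which it was picked.

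The like genes differed in how far they moved. At Tu 405 min the log2 difference from the reference was 5.70 for Fgf21 and 5.13 for Gdf15, a secreted stress cytokine, against 6.52 for Atf3. It was 0.93 for Akap8l, which thus kept the shape of the Atf3 pattern over a far smaller range. Ndrg1 had 2.98, Gata3, a zinc finger transcription factor, 2.84 and Pawr, a proapoptotic protein, 1.89. Gdf15 was near the floor in the reference, at 0.0179 to 0.1 CPM, where 3 reads are 0.0562 to 0.0747 CPM. Its group mean was above 1 CPM only at HS 135 min (3.53) and Tu 405 min (2.34), where Atf3 was also high. It thus met the mean of 1 CPM for the ranking through these groups, and its size and r rest on few reads elsewhere. Among listed genes, Jdp2 ranked 19 (r = 0.920), Ddit3 33 (0.898), Myc 46 (0.883), Gadd45a 52 (0.872) and Atf4 132 (0.813). Egr1 ranked 10254, with r = -0.598.

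**Figure D4:**
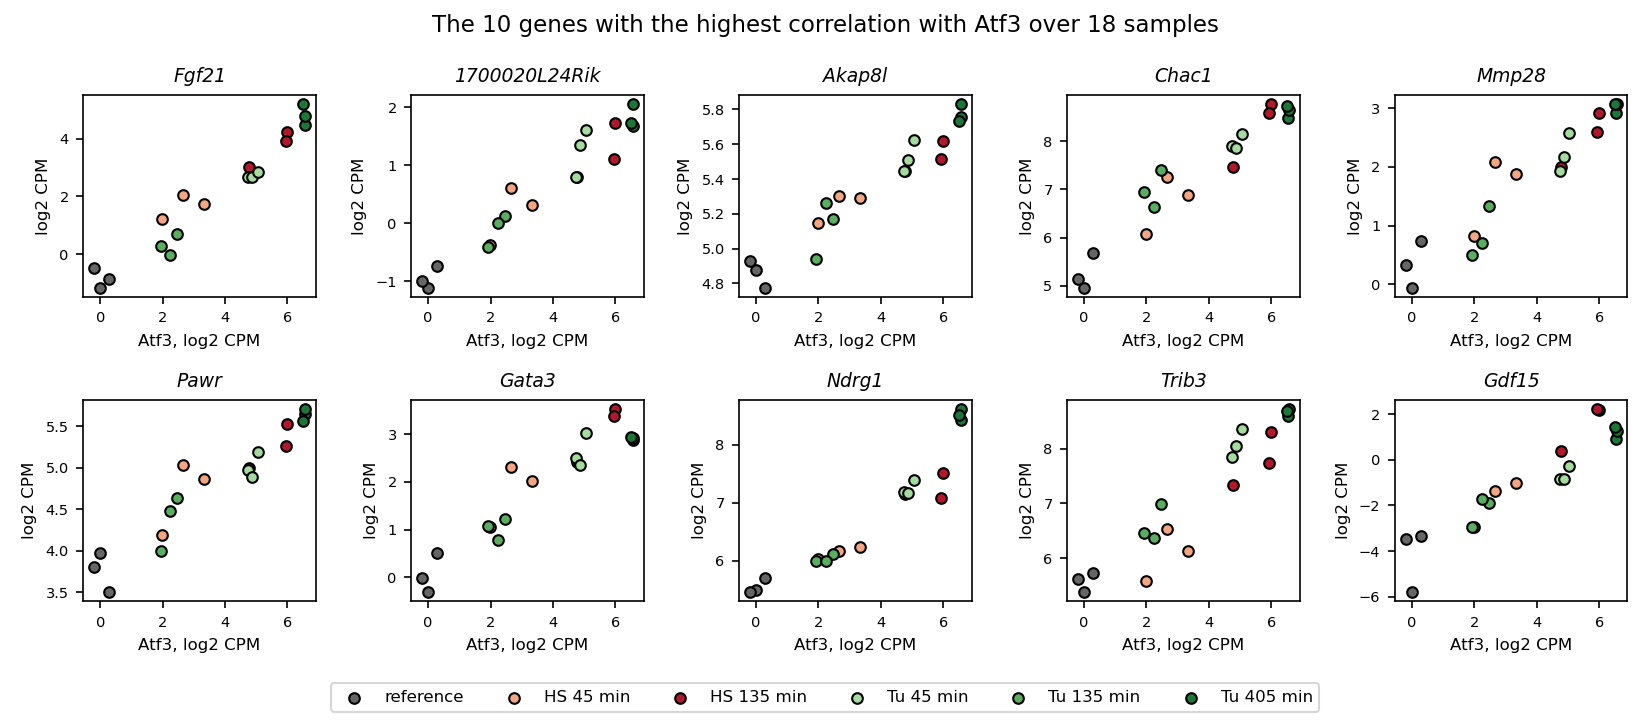
Log2 CPM of the 10 genes most correlated with Atf3 (y axes, each with its own range) against log2 CPM of Atf3 (x axis) in the 18 samples, coloured by group. Each r, taken from log2 CPM with a prior count of 2, lies between 0.941 and 0.974. The points are drawn without a prior count. The range on the y axis is widest for Fgf21 and Gdf15 and narrowest for Akap8l. Gdf15 was near the level of 3 reads in the reference, at 0.0179 to 0.1 CPM.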

How the data were processed

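Poly(A) RNA of 18 cultures was sequenced on an Illumina HiSeq instrument. Alignment to mm9 and counting against RefSeq were done by the authors on the DNAnexus platform. The aligner, counter and versions are not given in the sources used here, nor is which of the library preparations in the methods each sample had. The deposited estimated counts per gene are not normalized and are written with 4 significant digits, and 17.7% to 23.2% of low values were not whole. The deposited RPKM values are the authors' counts per kilobase of gene, scaled to library size. Values were joined by gene name, since coordinates of 741 genes differ between files.

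Samples were grouped by their labels. Atf3 and all gene lists were chosen with earlier results of these data known. Counts were rounded and tested with edgeR 4.0.16 in R 4.3.3 (TMM, quasi-likelihood test, the 3 samples of either group; 4 groups for the change over time), with Benjamini-Hochberg adjustment over 12731 genes with at least 1 read in every sample and a threshold of 0.05. The scripts were tested on simulated data. CPM uses TMM over 18 samples, and log2 CPM a prior count of 2, except in the figures, where points are drawn without it. A level of 3 reads is 0.0451 to 0.0898 CPM. The labels do not say that replicates come from separate experiments, so p-values measure the spread between these samples only. By chi-square no replicates were alike enough to be 1 library.

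Genes named are Atf3, the 10 genes with the highest Pearson r with it, ATF/CREB members and bZIP partners, the control genes Hsph1, Hspa1b, Hspa5 and Ddit3, and in each list up to 4 past the threshold with the largest differences per comparison. Replicate numbers were checked for pairing by correlating deviations from group means. Only at Tu 135 min against the reference was each same-number correlation over 0.1 (0.207 to 0.295). Alternatives were DESeq2 1.42.0, its size factors, total counts, other filters, a fit of all 18 samples, a replicate block, an offset for transcript GC content (lowess span 0.3, 97.4% of genes tested matched), both together, leaving out each sample, and RPKM for levels. Promoters came from RefSeq. Other steps used Python 3.11.15.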

Additional observations from a re-analysis of the deposited data

Results flagged for a closer look

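By edgeR's test, the change from 45 to 135 min differed between HS and Tu for Atf3 (5.53 higher in HS on the log2 scale). It also differed for 17 of the 74 listed genes tested, beside 1.74% of all genes higher in HS and 1.41% lower. As in Atf3, it was higher in HS for Trib3 (3.15), Gadd45a (2.91), Slc7a11 (2.64), Chac1 (2.46), Myd116 (2.32), Ddit3 (2.27), Hsph1 (2.07), Cebpg (1.46) and Sesn2 (1.46). It was lower in HS for Egr1 (-3.86), Egr2 (-3.23), Fos (-3.13), Dusp1 (-2.67), Dusp5 (-2.50), Nr4a1 (-1.77), Ier3 (-1.73) and Dusp6 (-1.33). Among these, the genes of the integrated stress response moved in the direction of Atf3 and the immediate-early genes and MAP kinase phosphatases in the other. All of these values set the cultures labelled 45 and 135 min of Tu against each other. Hspa5 at 135 min of Tu was below the reference, and the part of the time labels in these differences was not tested.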

How the results depend on the processing

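Between stressed groups, every difference in Atf3 kept its direction under every alternative tried. At HS 135 against 45 min, DESeq2 (2.87) and the fit of all 18 samples (2.91) passed the threshold, and values were 2.58 to 3.26 without 1 sample. At HS against Tu 45 min, DESeq2 (-2.09), total counts (-2.44), all 18 samples (-2.12) and the GC offset (-2.12) passed, with -2.53 to -1.85 without 1 sample. Those without 1 sample were -2.77 to -2.53 at Tu 135 against 45 min and 3.22 to 3.71 at HS against Tu 135 min.

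With the replicate block, the last 2 were no longer called (-2.66 and 3.34, adjusted p 0.465 and 0.328 by edgeR), nor with the block and the GC offset (-2.67 and 3.35). Replicate numbers did not pair these samples: same-number deviations correlated by -0.308 and -0.384 on average, and 1 and 0 of 6 samples correlated best with their own number. The block left 0 genes called in both, 0 at HS 135 min against the reference, and 21 higher and 0 lower at Tu 45 min against the reference, where 510 and 276 were called without it. It kept the call of the change from 45 to 135 min (5.55) and both rises to Tu 405 min. Of 113 calls of listed genes and markers against the reference, it lost 50, and leaving out samples lost 177 of 678 calls, all in the same direction. DESeq2 and filterByExpr lost 0 and no filter lost 1. Listed genes called at Tu 135 min were 21 by DESeq2 and 11 without a filter, and with the block 0 at HS 135 min and 6 at Tu 45 min.

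Over all genes, DESeq2 called 1232 higher and 927 lower at HS 135 min, 972 and 871 at Tu 45 min and 318 and 321 at Tu 135 min against the reference (edgeR 605 and 336, 510 and 276, 16 and 1). It called 328 and 294 at Tu 135 against 45 min (15 and 22), 748 and 379 at HS against Tu 45 min (8 and 18), 715 and 541 at HS against Tu 135 min (166 and 104) and 446 and 545 for the change over time (222 and 180). With total counts the median of all genes was -0.33 at HS against Tu 45 min (-0.05 with TMM), -0.18 at HS against Tu 135 min (-0.03), -0.13 at Tu 135 against 45 min (-0.02), -0.21 at Tu 405 against 45 min (-0.06) and -0.19 at HS 45 and 135 min against the reference (-0.03 and -0.02). They changed calls from 605 higher and 336 lower to 498 and 426 at HS 135 min, from 510 and 276 to 878 and 180 at Tu 45 min, and from 166 and 104 to 209 and 275 at HS against Tu 135 min. At Tu 405 against 45 min they changed calls from 3110 and 3574 to 2285 and 4497. Against the reference, Atf3 at Tu 405 min was at 6.42 with total counts and 6.39 to 6.65 without 1 sample, and its ratio of means was 6.43 by RPKM and 6.49 by CPM. Of the 10 genes most like Atf3, 5 were among the first 10 by Spearman's rho and 3 by group means. Depth limits Atf3 little, since its lowest count was 38 reads.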

Other observations

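The lowest correlations with Atf3 across the 18 samples were those of Cdc25b (r = -0.922), Ldha (-0.908) and Srd5a1 (-0.906), which were named after their values were seen and picked for these correlations. Cdc25b encodes a phosphatase that drives entry into mitosis, and Ldha lactate dehydrogenase. No p is given, since the points share libraries and groups.

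The fibroblast markers did not keep to one level either. Their summed level was 6035 to 7269 RPKM in the reference, 8189 to 11986 at HS 135 min and 3842 to 4326 at Tu 405 min, the group with the most Atf3. At Tu 405 min 5 of 7 were lower by edgeR's test, with a median of -0.83, where 23.5% of all genes passed downward, and at HS 135 min Col3a1 was higher by 1.79. The 7 markers of other cell types summed to 4.91 to 6.87 RPKM in the reference and 5.05 to 5.74 RPKM at Tu 405 min.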
